A study of Mus musculus with 156 samples.

Results

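The genes described here are 36 target and effector genes of the integrated stress response and the amino acid response. They were taken by name from a fixed list, which was chosen with earlier results of these data known. The rule uses no measured value other than the filter on low counts. Atf4, which encodes the factor that drives these genes, is not among the 36. The deposited table holds 40914 genes, and 36 of 36 members were in it and passed the filter on low counts in both time courses.

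The integrated stress response starts when kinases that sense amino acid shortage, misfolded protein, virus or heme lack phosphorylate the translation factor eIF2. Bulk translation then falls while the mRNA of ATF4 is translated more, and ATF4 pairs with C/EBP and other basic leucine zipper proteins at composite C/EBP-ATF elements. Its targets make and import amino acids, charge tRNAs, and, through CHOP (Ddit3) and the phosphatase subunit encoded by Ppp1r15a, feed back on the pathway. Proliferating mouse embryonic stem cells are known for a high demand for amino acids and for folate-linked carbon units.

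The samples were poly(A) RNA-seq libraries of mouse embryonic stem cells with and without Firre, an X-linked nuclear long noncoding RNA. There were 4 lines, 1 for each combination of genotype and transgene. The WT control has the genotype label WT, the WT transgene line carries a Firre inducible transgene, the KO control is Firre KO, and the KO transgene line is Firre KO / Firre inducible transgene. The promoter of the transgene, the number of clones and the allele of the deletion are not given in the sources used here. Doxycycline, which switches the transgene on, was given at 1 ng/µL to transgene and control lines alike, the day after seeding and 1 h after fresh medium, so a control line shows what doxycycline, time and ageing medium do without a transgene. These 3 cannot be told apart within a control line. Cells grew on gelatin in serum medium with non-essential amino acids, GlutaMAX, LIF and inhibitors of MEK and GSK3. No label names amino acid withdrawal or a stress agent.

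The long course sampled 0, 12, 24, 48 and 96 h with 3 libraries per line and time (60 libraries). The short course sampled every 30 min from 0 to 330 min with 2 libraries per line and time (96 libraries). The labels do not say whether libraries of a group came from separate cultures, so p-values measure the spread between these samples, which may be technical. In bulk RNA, fewer cells of a type and less RNA per cell cannot be told apart.

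Total counts ran from 18961799 to 47948630 in the long and from 19013652 to 37195019 in the short course. Firre followed its labels in each line: 21.3 to 31.3 TPM (transcript abundance scaled to transcript length and library size) in the long WT control, 0.235 to 1.07 TPM in the KO control, and 47.3 to 50.8 TPM at 12 h in the KO transgene line, which had 0.588 to 1.07 TPM at 0 min. The WT transgene line already had 45.8 to 46.8 TPM of Firre at 0 min and reached 109 to 121 TPM at 12 h. In the short course Firre peaked at 120 min, with 1240 and 1084 TPM in the WT transgene line and 459 and 471 TPM in the KO transgene line. The 8 stem cell markers were at or above 1 TPM in every group, and 7 of 9 fibroblast or feeder markers were below 1 TPM in every group. Summed trophoblast markers were 11.1 TPM at 0 min and 47.9 TPM at 48 h in the KO control, 13.2 and 99.5 TPM in the KO transgene line, 16.2 and 36.4 TPM in the WT control. The 5 genes summed were Cdx2, Eomes, Elf5, Krt8 and Krt18, and Elf5 was below 1 TPM in every group. The sum by itself does not show trophoblast cells. In the WT control at 24 h library 3 stood apart: its counts differed from those of libraries 1 and 2 with a chi-square per degree of freedom of 59.4 and 57.5, against 3.33 between libraries 1 and 2. In the short course the 2 KO control libraries at 180 min differed from each other with 35.7. At the other times of that line the value ran from 4.06 to 11.9. Which of these 2 libraries stood apart cannot be told, and no fit left out either alone. In the short course genes across the table changed level together between 150 and 180 min in both WT lines and between 60 and 90 min in the KO transgene line and, for fewer genes, the KO control, so the main results of that course are given with and without terms for these steps.

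Promoters were searched for the core of the C/EBP-ATF element, because it is the element through which ATF4 acts and because Jdp2, Asns and Chac1 lead the results below. The search used RefSeq windows of 300 bases, 250 before to 50 after each annotated start, on GRCm38.p6. The letters searched were TTNCATCA and their reverse complement TGATGNAA. A window was found for 31 members, and 11 of them held the letters (35.5%), against 4.51% of 27025 genes and 3.97% of 32851 windows. Those 11 were Asns, Atf3, Chac1, Jdp2, Nupr1, Pck2, Pycr1, Slc1a4, Slc7a11, Trib3 and Vldlr. Cth, Aldh1l2, Slc1a5, Slc7a3 and Slc7a5 had no window in the table. A match is a description of the letters and not evidence of binding. The members were listed as targets and effectors of this response, so their share is not a separate test of it. The windows below show Jdp2, which was higher in both transgene lines from 12 h on, Asns and Chac1, and Ddit4, which holds no match; capitals mark the matched letters, and each is 5′ to 3′ on the gene's strand.
Jdp2 (chr12:85599166-85599465, plus strand): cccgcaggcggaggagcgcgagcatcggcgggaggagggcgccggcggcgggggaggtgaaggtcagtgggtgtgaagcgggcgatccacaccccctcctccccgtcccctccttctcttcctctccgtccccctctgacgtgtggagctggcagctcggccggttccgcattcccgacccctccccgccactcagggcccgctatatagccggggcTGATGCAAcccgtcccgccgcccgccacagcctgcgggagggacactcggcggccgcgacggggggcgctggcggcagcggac
Asns (chr6:7693160-7693459, minus strand): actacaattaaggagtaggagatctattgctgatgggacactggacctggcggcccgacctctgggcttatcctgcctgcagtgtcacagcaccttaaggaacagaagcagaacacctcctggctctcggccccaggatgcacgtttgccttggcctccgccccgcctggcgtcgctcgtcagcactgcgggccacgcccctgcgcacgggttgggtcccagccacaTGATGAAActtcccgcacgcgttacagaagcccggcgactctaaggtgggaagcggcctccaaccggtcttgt
Chac1 (chr2:119350992-119351291, plus strand): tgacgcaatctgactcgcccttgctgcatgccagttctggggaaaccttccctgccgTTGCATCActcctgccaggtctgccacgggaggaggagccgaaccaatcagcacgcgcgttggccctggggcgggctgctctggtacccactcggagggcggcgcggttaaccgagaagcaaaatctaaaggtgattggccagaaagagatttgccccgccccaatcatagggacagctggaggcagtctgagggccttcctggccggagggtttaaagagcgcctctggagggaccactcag
Ddit4 (chr10:59951721-59952020, minus strand): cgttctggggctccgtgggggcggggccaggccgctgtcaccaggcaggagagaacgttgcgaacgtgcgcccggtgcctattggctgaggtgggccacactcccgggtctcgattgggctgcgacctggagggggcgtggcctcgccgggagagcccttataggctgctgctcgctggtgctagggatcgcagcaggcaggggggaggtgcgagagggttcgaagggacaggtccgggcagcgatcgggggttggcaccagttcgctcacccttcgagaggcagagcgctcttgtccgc
In these windows the letters began 33 bases before the Jdp2 start, 23 before the Asns start and 193 before the Chac1 start. Jdp2 has 3 windows in the table, and the one shown is the one with a match.

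At 0 min in the WT control of the long course the members spanned a wide range of levels. Asns, which makes asparagine, stood highest at 669 ± 20.9 TPM (mean ± SD, n = 3, as for the next values). Cth, which makes cysteine, had 214 ± 3.99 TPM, and Psat1 of serine synthesis 207 ± 5.36 TPM. The arginine and lysine importer Slc7a3 had 164 ± 2.47 TPM and Slc3a2, the heavy chain of several transporters, 132 ± 3.88 TPM. The cystine importer Slc7a11 was lowest at 0.559 ± 0.0715 TPM, with the folate enzyme Aldh1l2 at 0.677 ± 0.136 TPM and the lipoprotein receptor Vldlr at 1.08 ± 0.254 TPM. Of the 35 neighbouring pairs in this order, 21 had libraries that did not overlap and 14 did. Atf4 itself had 271 ± 1.64 TPM.

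**Figure D1:**
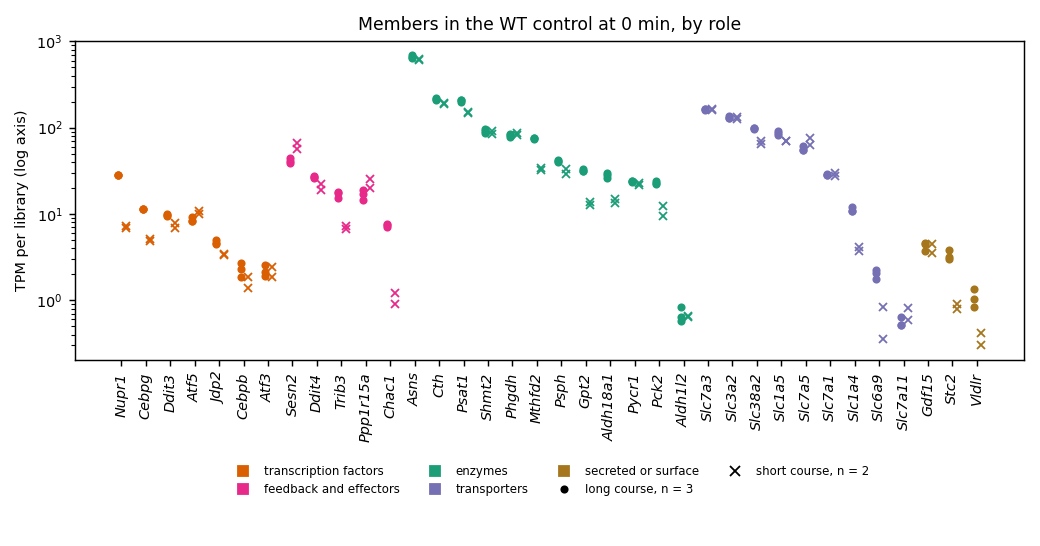
Level of each member at 0 min in the WT control, in TPM on a log axis, with 1 mark per library (dots for the 3 libraries of the long course, crosses for the 2 of the short course), grouped by role. Asns stood highest and Slc7a11 lowest in the long course, and enzymes and transporters filled most of the upper range.

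The courses started from different levels of several members, set side by side here with no test. Chac1, which degrades glutathione, had 7.40 TPM at 0 min in the long and 1.05 TPM in the short WT control. Nupr1, a small stress-induced chromatin protein, had 28.3 and 7.09 TPM, and the folate enzyme Mthfd2 75.1 and 33.0 TPM. Atf4 had 271 and 187 TPM. Across the 20 groups of the long course the highest group mean was 1.25 times the lowest for Psat1 and 4.96 times the lowest for Atf5, a relative of ATF4 that is under the same translational control.

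Without any transgene, most members changed over the long course. In the WT control 24 rose and 8 fell of 36, where 54.8% of all 17565 genes tested were called. In the KO control 22 rose and 12 fell, where 59.6% of genes were called. The direction is that at the time of largest change. The median member changed by 0.24 in the WT and 0.31 in the KO control on the log2 scale, against a median of -0.07 and -0.06 over all genes. With shares this high, a member's call by itself sets it little apart from other genes.

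The rise was already there at 12 h, when few other genes were called. In the WT control 19 of 36 members were called at 12 h, each of them higher, where 4.83% of genes were called and 2.61% were higher. In the KO control 20 were called, each of them higher, where 8.84% of genes were called and 4.46% were higher. The median change was 0.16 in the WT and 0.21 in the KO control on the log2 scale, against 0.01 over all genes in both, and 35 and 33 of 36 members had a change above 0. These comparisons share no library, and 15 members were higher in both, 15 of the 19 and 15 of the 20. Over all genes 493 were called in both, 58.1% of the 849 in the WT and 31.7% of the 1553 in the KO control. In TPM 18 of the 19 and 20 of the 20 were also higher in the mean. The exception was Asns in the WT control, called at 0.09 ± 0.03 (edgeR's quasi-likelihood adjusted p = 0.027) with 630, 651 and 613 TPM at 12 h against 691, 650 and 665 TPM at 0 min. The median TPM change over all genes in the controls lay between -0.085 and 0.072 (log2) at 12 and 24 h. At 48 h it was -0.189 in the WT and -0.106 in the KO control, and at 96 h -0.112 and -0.066, and a change in TPM is read relative to these shifts. In TPM 13 of 36 members were higher at 48 h in the WT and 20 in the KO control. Both sets of members called at 12 h held 8 of 12 enzymes.

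The members that rose at 12 h included enzymes, feedback genes and transporters. Pck2, the mitochondrial enzyme that makes phosphoenolpyruvate, rose by 0.38 ± 0.05 in the WT control (log2 fold change ± SE; edgeR's quasi-likelihood test, adjusted p = 9.70e-08) and by 0.50 ± 0.05 in the KO control (adjusted p = 5.09e-12). Chac1 rose by 0.60 ± 0.09 and 0.62 ± 0.09. Trib3, a pseudokinase that restrains ATF4, rose by 0.40 ± 0.06 and 0.35 ± 0.05. Gpt2, which makes alanine, rose by 0.19 ± 0.04 in the WT and 0.33 ± 0.04 in the KO control. Among the members with a motif the median change at 12 h was 0.35 in the WT and 0.31 in the KO control, with 8 and 7 of 11 called higher. Among the 20 with a window and no motif it was 0.15 and 0.17, with 8 and 10 called higher. At 24 h the medians were 0.19 and 0.34 with a motif and 0.17 and 0.18 without one, with 5 and 6 of 11 and 11 and 11 of 20 called higher.

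Between 12 and 24 h the members split. At 24 h 17 were higher and 9 lower than at 0 min in the WT control, where 33.4% of genes were called, and 21 higher and 8 lower in the KO control, where 44.8% were called. Without WT control library 3, which stood apart, the WT counts were 18 and 7. With it 25 members were called in both lines, 17 up and 8 down. Over all genes 4275 were called in both, 73.0% of the 5858 in the WT and 54.3% of the 7869 in the KO control. Of these 97.0% had the same sign, so the like direction of the members is near that of all genes. At 48 h the counts were 13 higher and 10 lower (38.4% of genes) and 17 higher and 12 lower (47.6%). At 96 h they were 14 higher and 7 lower (26.5%) and 18 higher and 8 lower (40.0%).

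At 24 h most enzymes were still higher. At 48 h, a later time than that of the enzyme counts, several feedback genes and transporters were lower. At 24 h 9 of 12 enzymes were higher and 1 lower in the WT control, and 11 higher and 1 lower in the KO control. Asns rose by 0.51 ± 0.03 in the WT control (adjusted p = 2.57e-30 over the course) and by 0.95 ± 0.03 in the KO control (adjusted p = 1.95e-48), both at 48 h. Its TPM means were 669 at 0 min and 746 at 48 h in the WT control, and 499 and 788 in the KO control. Of the members called higher at 48 h, 12 of 13 in the WT control were also higher in TPM (not Cth). In the KO control 16 of 17 were (not Ppp1r15a). At 96 h these counts were 13 of 14 in the WT (not Ppp1r15a) and 18 of 18 in the KO control. Phgdh, the first enzyme of serine synthesis, rose by 0.50 ± 0.04 and 0.33 ± 0.04 at 48 h. In the tests on counts Mthfd2 was the enzyme that fell, by 0.39 on the log2 scale in the WT and by 0.33 in the KO control at 48 h. In TPM the WT control means of Mthfd2, Cth, Gpt2, Aldh18a1 and Aldh1l2 were lower at 48 h than at 0 min. Those of Asns, Psat1, Phgdh, Psph, Shmt2, Pck2 and Pycr1 were higher, where the median change over all genes was -0.189 (log2).

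Of the 5 feedback genes 3 were lower and 2 higher at 48 h in each control, and of the 9 transporters 3 were lower, with 1 higher in the WT and 2 in the KO control. Chac1 turned from a rise to a fall. At 48 h it was -1.01 ± 0.10 in the WT and -0.69 ± 0.10 in the KO control relative to 0 min. Ddit4, an inhibitor of mTORC1, was at -0.62 ± 0.07 and -0.67 ± 0.07 at 96 h. The importer of small neutral amino acids Slc38a2 was at -0.78 ± 0.03 and -0.61 ± 0.03 at 48 h, with the smallest p-value of the WT course (adjusted p = 1.17e-37). Slc7a3 was at -0.44 ± 0.04 and -0.55 ± 0.04 at 24 h. In contrast Slc7a5, the leucine importer, rose by 0.35 ± 0.04 in both lines at 24 h.

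**Figure D2:**
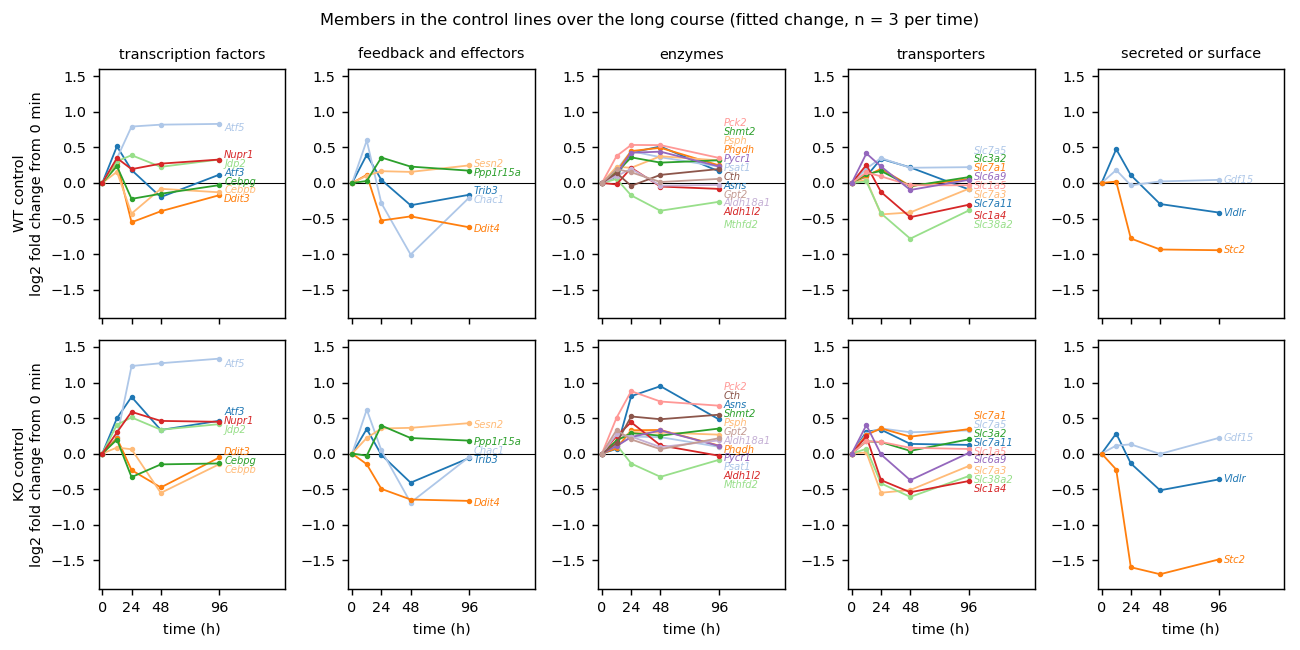
Fitted log2 change of each member from 0 min at 12, 24, 48 and 96 h in the WT control and the KO control, by role. Most lines lie above 0 at 12 h, and later Stc2, Chac1, Slc38a2 and Ddit4 lie below 0 while Atf5, Asns and Pck2 lie above.

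Members that did not pass over the WT control course were the factor Cebpb, Slc7a11, Aldh1l2 and the secreted stress hormone Gdf15 (edgeR's quasi-likelihood adjusted p of 0.227, 0.349, 0.478 and 0.532). In the KO control Gdf15 and Slc7a11 did not pass (0.417 and 0.501). All 4 stood below 5 TPM in the WT control at 0 min.

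Related genes were taken from 3 further lists. Of 13 tRNA synthetase and tRNA export genes tested, 12 rose in the WT control course (92.3%), and 10 rose and 1 fell in the KO control (84.6%), where the shares of all genes were 54.8% and 59.6%. Examples are Mars1 with 0.31 ± 0.03 and Gars with 0.31 ± 0.03 in the WT control. Of 16 signalling genes of the response 6 rose and 5 fell in the WT and 5 rose and 3 fell in the KO control, 11 of 16 (68.8%) and 8 of 16. At 12 h Atf4 mRNA had 292, 297 and 286 TPM in the WT control against 269, 272 and 272 TPM at 0 min, and 274, 280 and 276 against 249, 253 and 252 TPM in the KO control. The libraries of 12 h lay above those of 0 min in TPM, while the tests on counts did not pass (0.05 ± 0.03, edgeR adjusted p = 0.433, and 0.03 ± 0.03, adjusted p = 0.665). Atf4 was at -0.22 ± 0.03 (log2) at 48 h in the WT control (edgeR adjusted p = 1.03e-14) and at -0.18 ± 0.03 in the KO control. Of 14 further ATF4 or CHOP targets, 4 rose and 7 fell in the WT (78.6%) and 5 rose and 8 fell in the KO control (92.9%).

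The KO and WT controls differed before doxycycline, and at 24 and 48 h fewer members and fewer of all genes differed. At 0 min 7 members were higher and 9 lower in the KO control, where 35.1% of genes were called. At 12 h the counts were 9 and 7, where 34.4% were called. At 24 h 6 were called, each higher in the KO control (17.2% of genes; 5 higher and 1 lower without WT control library 3), at 48 h 7 and 2 (20.5%), and at 96 h 12 and 3 (23.0%). Each genotype is 1 line, so genotype and line cannot be told apart. At 0 min of the short course 5 members were called between these controls, 2 of them (Sesn2 and Atf5) also called here. Asns, Stc2, Cth, Pck2 and Slc1a4, described next, were not called there.

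Asns shows the pattern of the long course. The WT control had 691, 650 and 665 TPM at 0 min and 757, 737 and 745 TPM at 48 h. The KO control had 502, 475 and 521 TPM at 0 min, 481, 472 and 473 TPM at 12 h, and 775, 788 and 802 TPM at 48 h. The KO libraries lay below the WT libraries at 0 min and above them at 48 h. The log2 difference was -0.40 at 0 min, -0.42 at 12 h, -0.02 at 24 h and 0.04 at 48 h. The first 2 passed and the last 2 did not. In the short course the WT control had 612 TPM at 0 min, and the lowest group mean was 553 TPM, so the gap at 0 min did not repeat at that size.

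Stc2, a secreted glycoprotein of the stress response, went the other way. It had 2.98, 3.17 and 3.78 TPM in the WT control at 0 min and 6.61, 4.53 and 5.99 TPM in the KO control. At 48 h the WT control had 1.35, 2.07 and 1.55 TPM and the KO control 1.28, 1.74 and 1.65 TPM. The groups did not overlap at 0 min and overlapped at 48 h. Its log2 difference was 0.87 at 0 min and 0.63 at 12 h, and 0.06 at 24 h.

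Atf5 also met the WT level late. It had 8.36, 9.28 and 8.28 TPM in the WT and 5.53, 6.12 and 5.40 TPM in the KO control at 0 min. At 24 h it had 18.5, 20.3 and 12.1 TPM in the WT and 18.1, 18.4 and 19.1 TPM in the KO control, where the groups overlapped. Over the course the KO minus WT change was 0.50 ± 0.13 at 96 h (edgeR's quasi-likelihood adjusted p = 0.000292). Cth went from -0.44 at 0 min to 0.12 at 24 h, and Pck2 from -0.46 to -0.12. Slc1a4, which exchanges alanine, serine and cysteine, stayed higher in the KO control at each time, by 0.36 to 0.61.

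As courses, the KO and WT controls differed for 14 members, 11 of them changing upward in the KO control relative to the WT control, where 18.8% of genes were called. Without replicate 1, 2 or 3 of every group, in fits with fewer samples, 11, 8 and 10 members were called. The largest were Stc2 at -0.82 ± 0.15, Atf3, a stress-induced relative of ATF4, at 0.61 ± 0.18, and Cth at 0.56 ± 0.04, each at 24 h. These courses share their 0 min libraries with the comparison of lines at 0 min and are not separate support for it.

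The transgene lines also differed from their controls at 0 min. In the WT background 20 members were higher and 3 lower in the transgene line, where 13.2% of genes were called and 7.22% were higher. Among them were 10 of 12 enzymes. Atf5 was higher by 0.62 ± 0.09, Pck2 by 0.34 ± 0.05 and Asns by 0.20 ± 0.03, while Ddit4 was at -0.34 ± 0.07 and Slc38a2 at -0.16 ± 0.03. In the KO background 2 were higher (Cth and Asns) and 3 lower (Slc1a4, Gpt2 and Stc2), where 3.54% of genes were called. A transgene response is the change from 0 min in a transgene line minus that in its control, so these differences enter it with the opposite sign. Without replicate 1, 2 or 3 of every group the WT count was 13, 14 and 14 and the KO count 1, 3 and 2, in fits with fewer samples.

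In the KO background the response to the transgene, called rescue here because it returns Firre to cells that lack it, rose for 4 members and fell for 9, where 11.5% of genes were called. The median was -0.15, against -0.05 over all genes. By role, 5 of 12 enzymes fell. Without replicate 1, 2 or 3 of every group, in fits with fewer samples, 7, 4 and 6 members were called. At single times 3 members were called at 12 h (0.854% of genes), 5 at 24 h (6.46%), 5 at 48 h (4.83%) and 5 at 96 h (5.35%).

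Asns had the smallest p-value. The KO transgene line had 514, 563 and 541 TPM at 0 min, 463, 511 and 444 at 12 h, 642, 751 and 727 at 24 h, 672, 651 and 677 at 48 h, and 592, 592 and 641 at 96 h. The KO control had 748, 763 and 731 TPM at 24 h and 618, 681 and 646 at 96 h. In TPM the groups were apart at 48 h and overlapped at the other times, while in TMM-scaled counts (CPM) the transgene libraries lay below the control libraries at 4 of 4 times. The rescue was -0.34 ± 0.04 at 48 h (edgeR's quasi-likelihood adjusted p = 1.02e-10 over the course), and the line difference ran from 0.10 at 0 min to -0.25 at 48 h.

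Nupr1 followed. Its KO control had 46.7, 58.6 and 53.6 TPM at 24 h and the transgene line 34.0, 28.7 and 27 TPM. At 0 min they had 27.8, 27.5 and 31.6 TPM and 29.3, 27.6 and 29.1 TPM. The groups overlapped at 0 min and did not at 24 h. The rescue was -0.56 ± 0.09 at 24 h (edgeR's quasi-likelihood adjusted p = 4.68e-06).

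Ddit4 moved up. At 12 h the KO control had 27.6, 27.6 and 30.2 TPM and the KO transgene line 37.3, 31.4 and 41.0 TPM, after 26.8, 24.9 and 28.0 TPM and 26.0, 24.1 and 27.3 TPM at 0 min. At 96 h they had 16.2, 15.2 and 16.9 TPM and 18.6, 20.5 and 20.8 TPM. The transgene libraries lay above the control libraries at 4 of 4 times. The rescue was 0.48 ± 0.10 at 12 h (edgeR's quasi-likelihood adjusted p = 0.00144). It did not pass without replicate 1 of every group (adjusted p = 0.0908).

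The other members that passed in rescue changed by less than 0.2. They were Slc7a3 (-0.14), Slc7a1 (-0.17), Cth (-0.18), the proline enzyme Aldh18a1 (-0.12), Slc38a2 (0.13), Mthfd2 (-0.12), the leucine sensor Sesn2 (-0.19), Gpt2 (-0.16) and Slc7a5 (0.13), as log2 values. As a mean over 24, 48 and 96 h with no 0 min level, an alternative chosen after seeing the data, Cth was at 0.0111, Sesn2 at 0.0300 and Slc7a1 at 0.0915, with the opposite sign. For Aldh18a1 the change of largest size was 0.13 without replicate 1 and 0.13 without replicate 3 of every group, with the opposite sign. Jdp2, with 0.53, is described after the other members. The difference between the KO lines, which includes what was there at 0 min, showed 2 members higher and 16 lower at 12 h, where 8.91% of genes were called and 4.74% were lower. At 24 h 4 were higher and 10 lower (18.2% of genes), at 48 h 2 and 11 (13.4%), and at 96 h 2 and 8 (15.2%). Summed trophoblast markers of these lines at 48 h are given above, and their part in the members' differences was not tested; at 12 h they were 11.9 TPM in the KO control and 13.9 TPM in the KO transgene line.

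**Figure D3:**
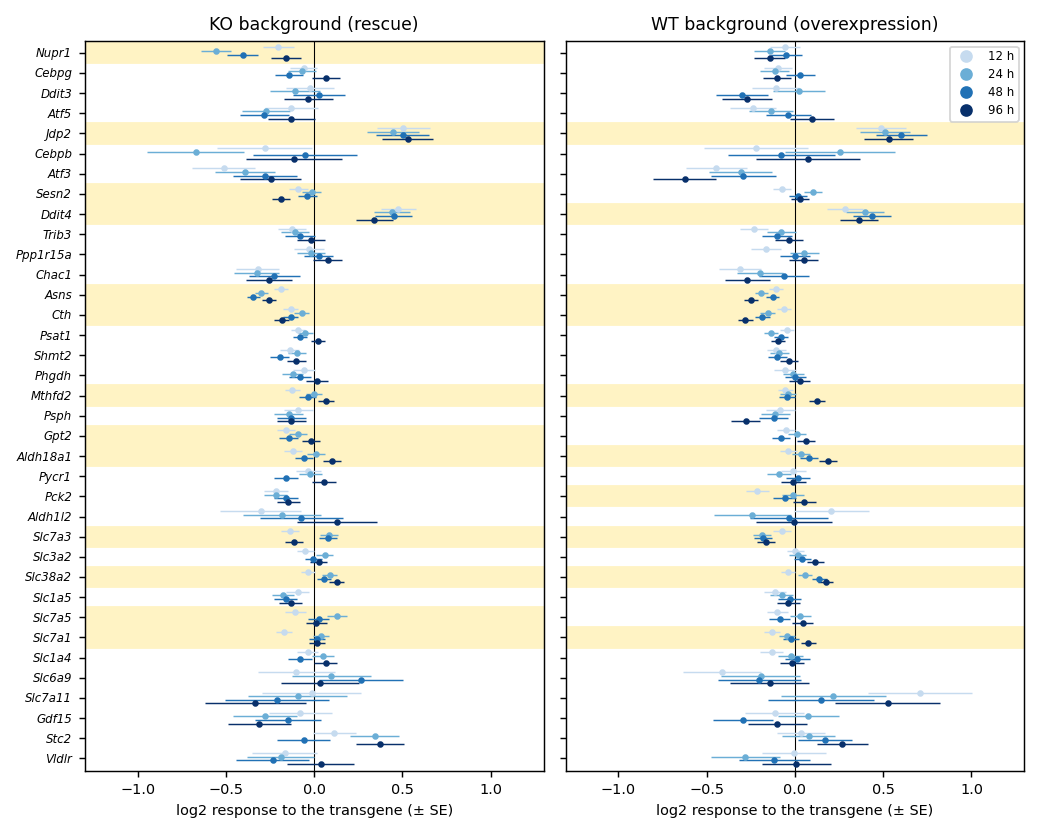
Transgene response of each member by time in the KO background (rescue) and the WT background (overexpression), as log2 values ± SE, with a yellow band on members that passed over the course. Asns lies below 0 and Jdp2 and Ddit4 above 0 in both backgrounds.

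In the WT background the response, called overexpression here because the line has its own Firre, rose for 5 members and fell for 5, where 9.79% of genes were called. The median was -0.13, against -0.05 over all genes. At single times 0 members were called at 12 h (0.581% of genes), 5 at 24 h (1.85%; 4 without WT control library 3), 4 at 48 h (2.56%) and 9 at 96 h (8.23%). Without replicate 1, 2 or 3 of every group, in fits with fewer samples, 6, 2 and 6 members were called over the course. Beside the 0 of edgeR's test at 12 h stand 11 members at an unadjusted p under 0.05. No share of all genes at that unadjusted threshold is given, so this count cannot be set against the 0.581%.

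For several of these the lines met after differing at 0 min. Ddit4 had 26.4, 26.5 and 27.9 TPM in the WT control at 0 min, where its transgene line had 21.2, 19.9 and 22.6 TPM, and 19.2, 17.8 and 17.7 TPM and 19.8, 20.6 and 21.8 TPM at 48 h. The overexpression response was 0.44 ± 0.11 at 48 h (edgeR's quasi-likelihood adjusted p = 0.0145), while the line difference was -0.34 at 0 min and -0.05 to 0.10 later. Asns had a response of -0.25 ± 0.04 at 96 h (adjusted p = 1.32e-05), with a line difference of 0.20 at 0 min and -0.05 at 96 h. Cth had -0.28 ± 0.04 at 96 h (adjusted p = 3.44e-06), with 0.18 at 0 min and -0.10 at 96 h. For these 3 the difference between the lines was larger at 0 min than at the later times. An alternative chosen after seeing the data takes the mean difference between the WT lines over 24, 48 and 96 h with no 0 min level. In it these 3 stood at 0.06, 0.01 and -0.02 and passed in none (edgeR adjusted p = 0.338, 0.572 and 0.34). There 17 members were higher and 1 lower, Pck2 among the higher at 0.33 (edgeR adjusted p = 1.82e-18). This alternative keeps the line difference of 0 min, when 23 members and 13.2% of all genes were called. At 24, 48 and 96 h singly, 9.87%, 8.52% and 17.5% of all genes were called between the WT lines. As responses, Ddit4 did not pass without replicate 1 or 2 of every group (adjusted p = 0.082 and 0.134), nor Asns without replicate 2 (adjusted p = 0.126).

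Atf5 kept its 0 min difference in the WT background. In the WT transgene line Atf5 had 13.1, 12.9 and 13.6 TPM at 0 min and 28.1, 30.7 and 25.8 TPM at 48 h, where the WT control had 15, 16.9 and 18 TPM. It was higher than in the WT control by 0.38 to 0.71 at the times from 12 h on. In TPM the libraries of the 2 lines overlapped at 12 and 24 h. In TMM-scaled counts (CPM) the transgene libraries lay above the control libraries at 4 of 4 times. Its overexpression response did not pass (-0.24 ± 0.13 at 12 h, edgeR's quasi-likelihood adjusted p = 0.296). Between the WT lines 9 members were higher and 3 lower at 12 h (19.1% of genes called), 7 and 1 at 24 h (9.87%; 6 and 0 without WT control library 3), 9 and 1 at 48 h (8.52%), and 15 and 2 at 96 h (17.5%).

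Rescue and overexpression share no library. 9 members passed in both, 9 of the 13 in rescue and 9 of the 10 in overexpression. Over all genes 635 passed in both, 31.4% of the 2024 in rescue and 36.9% of the 1720 in overexpression, and 76.9% of them had the same sign at their times of largest size. Set side by side at 12, 24, 48 and 96 h, Ddit4 and Jdp2 were above 0 and Asns and Cth below 0 at each time in both backgrounds. A response subtracts the line difference at 0 min. In the KO and WT backgrounds that difference was 0.10 and 0.20 for Asns and 0.14 and 0.18 for Cth, which lowers their responses. Ddit4 started lower in the WT transgene line, which raises its response, and Jdp2 started higher (0.40), which lowers it. Values without the 0 min level are given with each background. Slc38a2 was at -0.03, 0.09, 0.06 and 0.13 in rescue and -0.04, 0.06, 0.14 and 0.17 in overexpression. The sign of the other 4 varied with time. Mthfd2 was at -0.12, -0.00, -0.04 and 0.07 in rescue and -0.05, -0.04, -0.05 and 0.13 in overexpression, the same sign at 4 of 4 times. Aldh18a1 was at -0.12, 0.01, -0.06 and 0.10 and at -0.04, 0.03, 0.08 and 0.19. Both genes were below 0 at 12 h and above 0 at 96 h in each background. Slc7a3 was at -0.14, 0.08, 0.08 and -0.12 and at -0.08, -0.19, -0.18 and -0.16, and Slc7a1 at -0.17, 0.04, 0.02 and 0.02 and at -0.13, -0.04, -0.02 and 0.08. The test of the difference between the responses passed for 3 members, where 5.32% of genes were called: Slc7a3 at 0.27 ± 0.07, Asns at -0.22 ± 0.05 and Nupr1 at -0.41 ± 0.12. Without replicate 1, 2 or 3 of every group 1 member was called in each fit, with fewer samples.

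Jdp2, a basic leucine zipper protein that dimerises with Jun and represses AP-1 and ATF-type sites, was higher in the transgene line than in its control from 12 h on in both backgrounds. In the WT control it had 4.48, 5.00 and 4.58 TPM at 0 min and 4.69 to 7.19 TPM in the 12 libraries from 12 h on. In the WT transgene line it had 5.10, 6.86 and 6.53 TPM at 0 min and 10 to 13.2 TPM later. The later transgene libraries lay above every control library of this background.

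The KO background gave a like order. The KO control had 3.88, 3.91 and 4.45 TPM at 0 min and 4.69 to 6.90 TPM later. The KO transgene line had 4.70, 4.12 and 4.60 TPM at 0 min and 7.89 to 9.72 TPM later, again above every control library. The line difference was 0.60 to 0.68 (log2) from 12 h on and 0.15 at 0 min, which did not pass. In the WT background it was 0.89 to 1.00 from 12 h on and 0.40 at 0 min, which passed.

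As responses these were 0.53 ± 0.15 at 96 h in rescue (edgeR's quasi-likelihood adjusted p = 0.0300) and 0.60 ± 0.14 at 48 h in overexpression (adjusted p = 0.0104). Without replicate 2 or 3 of every group they did not pass (adjusted p = 0.418 and 0.307 in rescue, 0.164 and 0.0501 in overexpression). As a mean over 24, 48 and 96 h with no 0 min level, an alternative chosen after seeing the data, Jdp2 was higher in the transgene line by 0.64 in the KO (edgeR adjusted p = 1.40e-15) and 0.95 in the WT background (adjusted p = 1.92e-24). The difference between the 2 responses was -0.10 ± 0.21, with an edgeR adjusted p of 0.990, and no difference between the backgrounds was detected. Jdp2 also rose in the controls without a transgene, by 0.39 ± 0.11 in the WT and 0.51 ± 0.11 in the KO control at 24 h.

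**Figure D4:**
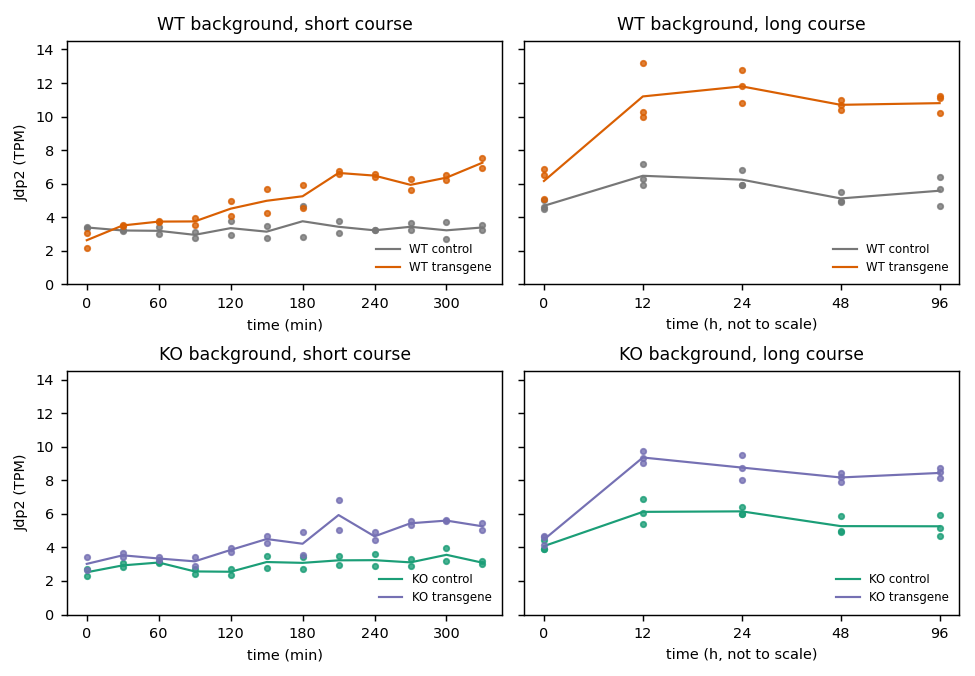
Jdp2 level in TPM per library (dots) with group means (lines), for the long course and the short course in the WT and KO backgrounds; the time axis of the long course is not to scale. From 12 h on the transgene libraries sit at 10 to 13.2 TPM in the WT and 7.89 to 9.72 TPM in the KO background, above the control libraries.

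In the short course Jdp2 rose within the first hours in the WT background. The WT transgene line had 3.07 and 2.19 TPM at 0 min, below the 3.36 and 3.42 TPM of the WT control, a difference that was not called. This low start adds to a response measured from 0 min. In the long course Jdp2 was instead higher in the transgene line at 0 min (0.40). The transgene libraries reached 4.96 and 4.06 TPM at 120 min. By 210 min they had 6.55 and 6.74 TPM, and the last ones, at 330 min, 7.56 and 6.94 TPM. The WT control stayed between 2.71 and 4.68 TPM. In TMM-scaled counts the transgene libraries lay above the control libraries at 11 of 11 times after 0 min. In TPM 1 of them, with 4.55 TPM at 180 min, lay below a control library with 4.68 TPM. The mean overexpression response over these times was 0.85 ± 0.15 (edgeR's quasi-likelihood adjusted p = 5.05e-07), and the tests at single times passed from 210 min on, with 1.42 ± 0.25 at 330 min. It was the only member called, 1 of 36 and higher, where 0.700% of 18009 genes were called and 0.505% were higher. It did not pass without replicate 2 (0.74, edgeR adjusted p = 0.116) or with a term for the step from 180 min on, chosen after seeing the data (0.87, adjusted p = 0.238).

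In the KO background the response of Jdp2 did not pass. The KO transgene line had 2.64 and 3.40 TPM at 0 min, then 5.03 and 6.84 TPM at 210 min. At 330 min it had 5.45 and 5.06 TPM, against 2.31 to 3.94 TPM in the KO control. In TMM-scaled counts the transgene libraries lay above the control libraries at 10 of 11 times after 0 min. The mean rescue was 0.32 ± 0.16 (edgeR's quasi-likelihood adjusted p = 0.0951). By edgeR's test no member passed in the short rescue, where 1.82% of genes were called, and DESeq2 called 1. At an unadjusted p under 0.05 there were 14 members, with no share of all genes given at that looser threshold. The difference between the responses was -0.53 ± 0.22 for Jdp2 (edgeR adjusted p = 0.494), and it passed for 0 members, where 0.0167% of genes were called. Here 7 members had an unadjusted p under 0.05, again with no share of all genes at that threshold.

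In the short WT control course 8 members rose and 4 fell, where 21.8% of genes were called. In the KO control 11 rose and 1 fell, where 13.3% were called. Direction here is the mean over the 11 times after 0 min. 8 passed in both, 8 of 12 and 8 of 12: Sesn2, Ddit4, Cebpg, Trib3, Atf5, Ddit3 and Chac1 up in both, and Slc1a5 with opposite signs. Of the 5 feedback genes 4 rose in each line, of the 7 factors 3 rose in each and 1 fell in the WT control, and of the 12 enzymes 1 rose in each. Over all genes 1231 passed in both, 31.4% of the 3918 in the WT and 51.5% of the 2390 in the KO control. With 1 coefficient per line and time in place of the spline, 5 members were called in each line, and with terms for the steps at 90 and 180 min, chosen after seeing the data, 0 were called in each, so these calls and the steps cannot be told apart. Asns, which had the smallest p-value of the long KO control course, was at -0.03 ± 0.03 in the WT control and 0.00 ± 0.03 in the KO control and passed in neither.

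Cebpg, a partner that ATF4 needs at many of its sites, had the smallest p-value of the WT control course and changed in a step. Its WT control libraries had 5.14 and 4.83 TPM at 0 min and still 5.52 and 5.79 TPM at 150 min. From there they went to 9.18 and 9.70 TPM at 180 min, and ended with 9.62 and 11.3 TPM at 330 min. The WT transgene line had 6.14 and 6.82 TPM at 150 min and 9.16 and 9.18 at 180 min. Both lines were low to 150 min and high from 180 min on, with no overlap. The step was 0.87 ± 0.09 in the WT control (edgeR's quasi-likelihood adjusted p = 8.02e-11) and 0.64 ± 0.08 in the WT transgene line (adjusted p = 1.37e-07).

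Cebpg was the 1 member called in that step in each WT line, where 2.53% and 3.04% of genes were called. Genes beyond the members stepped at this interval in both WT lines, and what the libraries from 180 min on share other than time was not tested. In the KO lines Cebpg had 8.16 and 6.97 TPM in the control and 6.95 and 6.33 TPM in the transgene line at 0 min. Between 60 and 90 min it went from 7.74 and 6.07 to 8 and 8.78 TPM in the control, and from 7.53 and 6.34 to 8.02 and 8.49 TPM in the transgene line. That step passed in the transgene line (0.39 ± 0.08, edgeR's quasi-likelihood adjusted p = 0.00219) and not in the control (0.26 ± 0.08, adjusted p = 0.192).

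**Figure D5:**
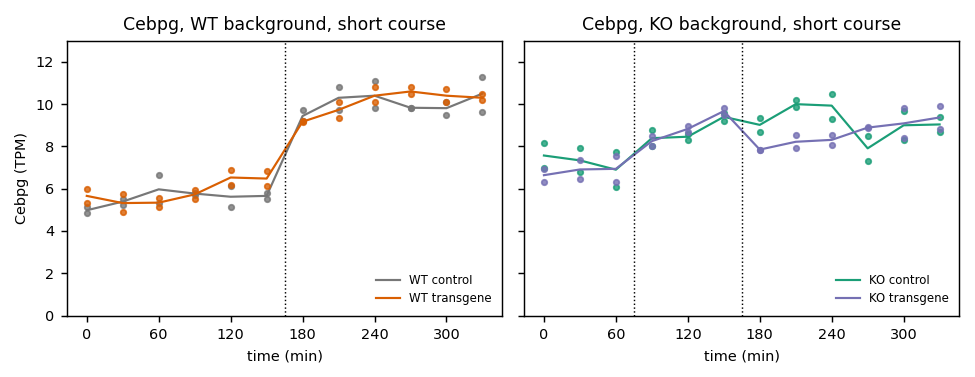
Cebpg level in TPM per library (dots) with group means (lines) over the short course, WT lines and KO lines in separate panels; dotted lines mark the intervals in which genes across the table stepped. The WT lines go from 5.52 to 6.82 TPM at 150 min to 9.16 to 9.70 TPM at 180 min, while the KO lines start higher.

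In the same 60 to 90 min interval 6 members were called in the KO transgene line, Cebpg up and Gpt2, Stc2, Slc1a4, Shmt2 and Trib3 down, where 4.19% of genes were called. In the KO control 1 was called, Gpt2 at -0.23 ± 0.06, where 0.355% of genes were called. The short KO and WT control courses differed for 5 members, Cebpg, Slc1a5, Ppp1r15a, Slc38a2 and Gpt2, where 4.93% of genes were called. With the step terms 0 were called, and without replicate 1 or 2 of every group 3 and 3. The steps lie at 90 min in the KO and at 180 min in the WT lines, so the difference between the courses and that between the steps cannot be told apart. Tests at 0 min of the short course called 1 member higher (Cebpg, 0.55 ± 0.09) and 4 lower in the KO control (Phgdh, Sesn2, Atf5 and Ddit4), where 7.51% of genes were called. Sesn2 and Atf5 were lower in both courses, 2 of the 5 here and 2 of the 16 in the long course. In the WT transgene line 3 members were higher than in the WT control at 0 min, Atf5 (0.51 ± 0.12), Slc7a3 (0.20 ± 0.05) and the proline enzyme Pycr1 (0.25 ± 0.07), where 2.93% of genes were called, and these 3 were among the 20 higher in the long course. Without replicate 1 or 2 of every group 0 of them were called, in fits with fewer samples. In the KO background edgeR and DESeq2 each called 0 members at 0 min, where 0.161% of genes were called. There 10 members had an unadjusted p under 0.05, with no share of all genes given at that looser threshold.

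Of the related lists, 4 of 13 tRNA synthetase and export genes fell in rescue over the long course (30.8%, where 11.5% of all genes were called), led by Gars at -0.12 ± 0.04. In overexpression 2 fell, Lars and Xpot (15.4%, where 9.79% of genes were called). Of 16 signalling genes 1 fell in rescue (6.2%), Ppp1r15b, the constitutive eIF2 phosphatase subunit, at -0.20 ± 0.05, and Atf4 did not pass (-0.08, edgeR's quasi-likelihood adjusted p = 0.243). In overexpression 1 rose and 3 fell (25.0%). Among them Eif2b5, a subunit of the eIF2 exchange factor, was at -0.20 ± 0.03, while Atf4 was at -0.07 (adjusted p = 0.577). Of 14 further targets 1 rose and 2 fell in rescue (21.4%), and 1 rose in overexpression (7.1%).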

How the data were processed

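The authors deposited estimated counts per gene and TPM for 156 libraries. Salmon 1.5.2 and mm10 are named in the submitters' processing notes; how transcripts were summed to genes is not given in the sources used here. The authors' deposited TPM values were used for levels, and the estimated counts, rounded to whole numbers, for tests. Libraries were made with a poly(A) kit that does not mark strand, per the labels' protocols, so overlapping genes on opposite strands share reads.

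The members and the lists of related genes were chosen with earlier results of these data known. Genes were named by rule: members that passed (adjusted p under 0.05), at most 8 by smallest adjusted p and 5 by largest log2 fold change in a comparison, and at most 4 passing genes from the other lists. Jdp2 in the short rescue, and members that did not pass, are given as values.

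Tests used edgeR 4.0.16 in R 4.3.3 (quasi-likelihood, robust, TMM factors, low counts removed with a minimum count of 10 and a minimum total of 15), which kept 17565 genes in the long and 18009 in the short course. Long courses and responses were tested with an F test on 4 coefficients, and the value given is that of the time of largest size unless a time is named. Short ones used a natural spline with 3 degrees of freedom, and the value given is the mean over 11 times. A response is the change in a transgene line minus that in its control. P-values were adjusted by Benjamini-Hochberg over all genes tested, and SE is the fold change divided by the root of F. The scripts were tested on simulated data. Alternatives were DESeq2 1.42.0, RLE size factors, no filter, only the lines compared, a replicate block, another time model, left-out replicates, and, chosen after seeing the data, step terms and the long course without its first times.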

Additional observations from a re-analysis of the deposited data

Results flagged for a closer look

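The change from 0 min differed between the KO and the WT control by a test of the difference itself. In the long course (edgeR's quasi-likelihood F test over the times after 0 min, adjusted over all genes) this held for 14 members, and the values are KO minus WT log2 changes at the time of largest size. Among enzymes it was 0.56 for Cth, 0.43 for Asns, 0.34 for Pck2, 0.21 for Aldh18a1, 0.18 for Mthfd2 and -0.21 for Psat1. Among transporters it was 0.29 for Slc7a1, 0.17 for Slc38a2 and -0.25 for Slc1a4. Among factors and the other members it was 0.61 for Atf3, 0.50 for Atf5, 0.39 for Nupr1, 0.21 for Sesn2 and -0.82 for Stc2.

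In the short course the same test held for 5 members, and the values are means over the times after 0 min. They were -0.16 for Cebpg, 0.14 for Slc1a5, -0.19 for Gpt2, 0.0286 for Ppp1r15a and -0.0209 for Slc38a2. Step terms, chosen after seeing the data, were set at 90 and 180 min in the KO and at 180 min in the WT lines. With these terms none of the 5 passed (0 of 36 members by edgeR), so the difference between the courses and that between the steps cannot be told apart.

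Rescue and overexpression differed by a test of the difference for 3 members of the long course, at 0.27 for Slc7a3, -0.22 for Asns and -0.41 for Nupr1 (log2, rescue minus overexpression). Of all genes 5.32% passed this test, and without replicate 1, 2 or 3 of every group 1 member passed in each fit.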

How the results depend on the processing

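Of 164 counts of called members under alternatives, 124 stayed within 1.5 times the main count and 40 did not. RLE size factors, fitting only the lines compared, and leaving out the WT control library 3 of 24 h moved none. Leaving out 1 replicate of every group leaves fewer samples. In the long course the counts then ran from 29 to 32 (WT control course, 32), 31 to 33 (KO control course, 34), 8 to 11 (their difference, 14), 21 to 22 and 20 to 22 (steps from 12 to 24 h, 25 in the WT and 26 in the KO control), 12 to 15 (KO against WT control at 0 min, 16), 1 to 3 (KO lines at 0 min, 5), 13 to 14 (WT lines at 0 min, 23), 4 to 7 (rescue, 13), 2 to 6 (overexpression, 10) and 1 to 1 (their difference, 3). In the short course they ran from 6 to 12 (WT control course, 12), 5 to 7 (KO control course, 12), 0 to 3 (rescue, 0), 0 to 3 (overexpression, 1), 3 to 3 (KO minus WT control course, 5), 1 to 9 (controls at 0 min, 5), 0 to 1 (KO lines at 0 min, 0) and 0 to 0 (WT lines at 0 min, 3).

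Other moved counts in the short course were 5 and 5 for the WT and KO control courses with 1 coefficient per line and time, 0 and 0 for them, 0 for their difference and 0 for overexpression with step terms, 1 for rescue with DESeq2 and 3 with no filter, and 2 for the KO lines at 0 min with no filter. Overexpression in the long course gave 18 without 0 and 12 h. Signs turned with step terms for Cebpg in the KO (-0.0514) and Chac1 in the WT control course (-0.0825), and in the difference of these courses for Slc38a2 (0.1064), Gpt2 (0.2197) and Ppp1r15a (-0.0587). Without 0 and 12 h they turned in overexpression for Asns (0.0133), Slc38a2 (-0.0334), Slc7a1 (0.13) and Pck2 (0.33), and in rescue for Cth (0.0111), Sesn2 (0.0300) and Slc7a1 (0.0915). That alternative keeps the difference between lines at 0 min, which a response subtracts. With 1 replicate of every group left out, Aldh18a1 in rescue ran from -0.15 to 0.13. In the short WT control course Slc38a2 was 0.18 with 1 coefficient per line and time and ran from -0.0576 to 0.0497 with a replicate left out, and Ppp1r15a ran from -0.17 to 0.0364. In the difference of the short control courses Slc38a2 ran from -0.0854 to 0.0270 and Ppp1r15a from -0.1288 to 0.1858. The cause was not tested.

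The replicate block gave 1 in place of 0 for the KO lines at 0 min of the short course and moved no other of 18 counts. Correlations of the deviations of same-numbered libraries at the same time were over 0.1 in 9 of 45 pairs of the long course (median 0.001). In the short course they were over 0.1 in 20 of 24 pairs of the KO transgene line and KO control (median 0.1745), 2 of 24 of the KO and WT controls and 4 of 24 of the WT lines. As not every pair was over 0.1, the numbers were not taken to pair the samples.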
